A study of Mus musculus with 10 samples.

Results

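Chemokine and chemokine receptor genes were chosen by symbol: the Ccl, Cxcl, Xcl and Cx3cl1 ligands, the Ccr, Cxcr, Xcr1 and Cx3cr1 receptors, and the atypical receptors named Ackr and Ccrl2. The rule found 60 of the 59408 gene models in the deposited table. Of the 60, 51 had a value of 10 or more in at least 3 of the 10 libraries and were tested. A further 7 had lower values, and 2 (Cxcl15 and Ccl26) were at 0 in every library.

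Chemokines are small secreted proteins that direct the movement of leukocytes, and their receptors on those cells couple to G proteins. Injured bile duct cells, macrophages, endothelium and stellate cells of the liver can all secrete them, and each leukocyte type carries its own receptors. In the liver the ligands of Cxcr2 are known for drawing neutrophils, those of Ccr2 for drawing monocytes, and those of Cxcr3 and Cxcr6 for drawing T cells, NK cells and NKT cells.

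The livers came from wild type C57BL/6 mice and were collected at day 35, each library from a separate mouse per the labels. PBC mice (n = 3) carried a model of autoimmune primary biliary cholangitis, a disease of the small bile ducts: 100 µg of 2-octynoic acid coupled to BSA on days 0, 14 and 28, in complete and then incomplete Freund's adjuvant, with 2 µg of the NKT cell activator α-galactosylceramide alongside the first 2 injections. PSC mice (n = 3) modelled sclerosing cholangitis without autoimmunity (primary sclerosing cholangitis): food with 0.089% DDC (3,5-diethoxycarbonyl-1,4-dihydrocollidine), a bile duct toxicant, for 2 weeks, then 1 week without it and 1 more week with it. Control mice (n = 4) were untreated, so that in PBC mice the antigen, the adjuvant and the glycolipid cannot be told apart. The sources used here do not give sex or age.

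Values are reads per gene model after the authors' DESeq2 normalisation, called normalised reads. The libraries held 38.3 to 95.4 M (mega) recovered reads, and the 60 genes took 0.0596% to 0.138% of them. Markers of hepatocytes summed to 8640690 to 12799800 normalised reads in PBC livers, 5630260 to 6816470 in PSC livers and 8508240 to 9843870 in control livers. Every PSC liver lay below every other library in this sum, and its part in the PSC differences was not tested. Mitochondrial models took 13.7% of control 2 and at most 8.67% elsewhere, and control 2 was the lowest control for 21 of the 51 genes while control 3 was the highest for 24. Differences are log2 differences of normalised reads plus 1, with their standard error (SE) and the adjusted p from limma over all 18390 tested gene models, called at 0.05. In whole liver, fewer cells of a type and less RNA per cell cannot be told apart.

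In PBC livers, attractants of neutrophils (Cxcl1, Cxcl2, Cxcl5), of monocytes (Ccl2, Ccl7, Ccl8, Ccl12) and of T cells (Ccl5, Cxcl9) were higher than in control livers by 2.29 to 5.96 on the log2 scale. The receptors Cxcr2, Ccr1, Cxcr3, Ccr7, Cxcr4 and Xcr1 were higher as well. In all 24 of the 51 genes rose, or 47.06%, where 7.60% of all tested gene models did. Of the 24, Cxcl5 had no control at 10 or more and passed the filter on low values through PBC and PSC livers alone. None fell by limma (0 of 51, with 1 at an unadjusted p below 0.05), where 2.34% of all models did. edgeR also called 0 lower, with 2 at an unadjusted p below 0.05, and DESeq2 called 1 lower, the scavenging receptor Ackr4, with 2 at an unadjusted p below 0.05. The median difference was 1.19 over the 51 genes and 0.01 over all tested models.

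In PSC livers, the same 3 neutrophil attractants and 4 monocyte attractants were higher than in control livers, by 2.97 to 5.14 on the log2 scale, together with Ccr1, Ccr2, Cx3cr1, its ligand Cx3cl1, Ccl20 and Cxcl14. The B cell attractant Cxcl13, its receptor Cxcr5 and the abundant retention factor Cxcl12 were lower. In all 29 of 51 genes rose, or 56.86%, where 8.25% of all models did, and 3 fell, or 5.882%, where 6.48% of all models did. The share that fell was near that background. Of the 29, Ccl20 and Cxcl17 passed the filter on low values through PSC livers alone, which only genes high there could do. Cxcl5 passed it through PBC and PSC livers alone, as said above. The median difference was 1.48, and 0.06 over all models. Both comparisons used the same 4 control libraries, so their values are given side by side: 20 genes rose in both, 4 were called higher in PBC alone, 9 were called higher in PSC alone and 15 were called in neither.

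Set directly against PSC livers, PBC livers had higher Ccl8, Ccl5, Cxcl13, Cxcr5 and Cxcr3, and lower Ccl20, Cxcl14 and Cx3cr1. These were 5 higher and 3 lower of 51, or 9.804% and 5.882%, where 1.11% and 1.13% of all models were called. Ccl20, 1 of the 3, passed the filter through PSC livers alone. The median difference was -0.26 over the 51 genes and 0.02 over all models. For every other gene called against controls in one model and not in the other, the direct comparison did not pass the threshold.

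**Figure D1:**
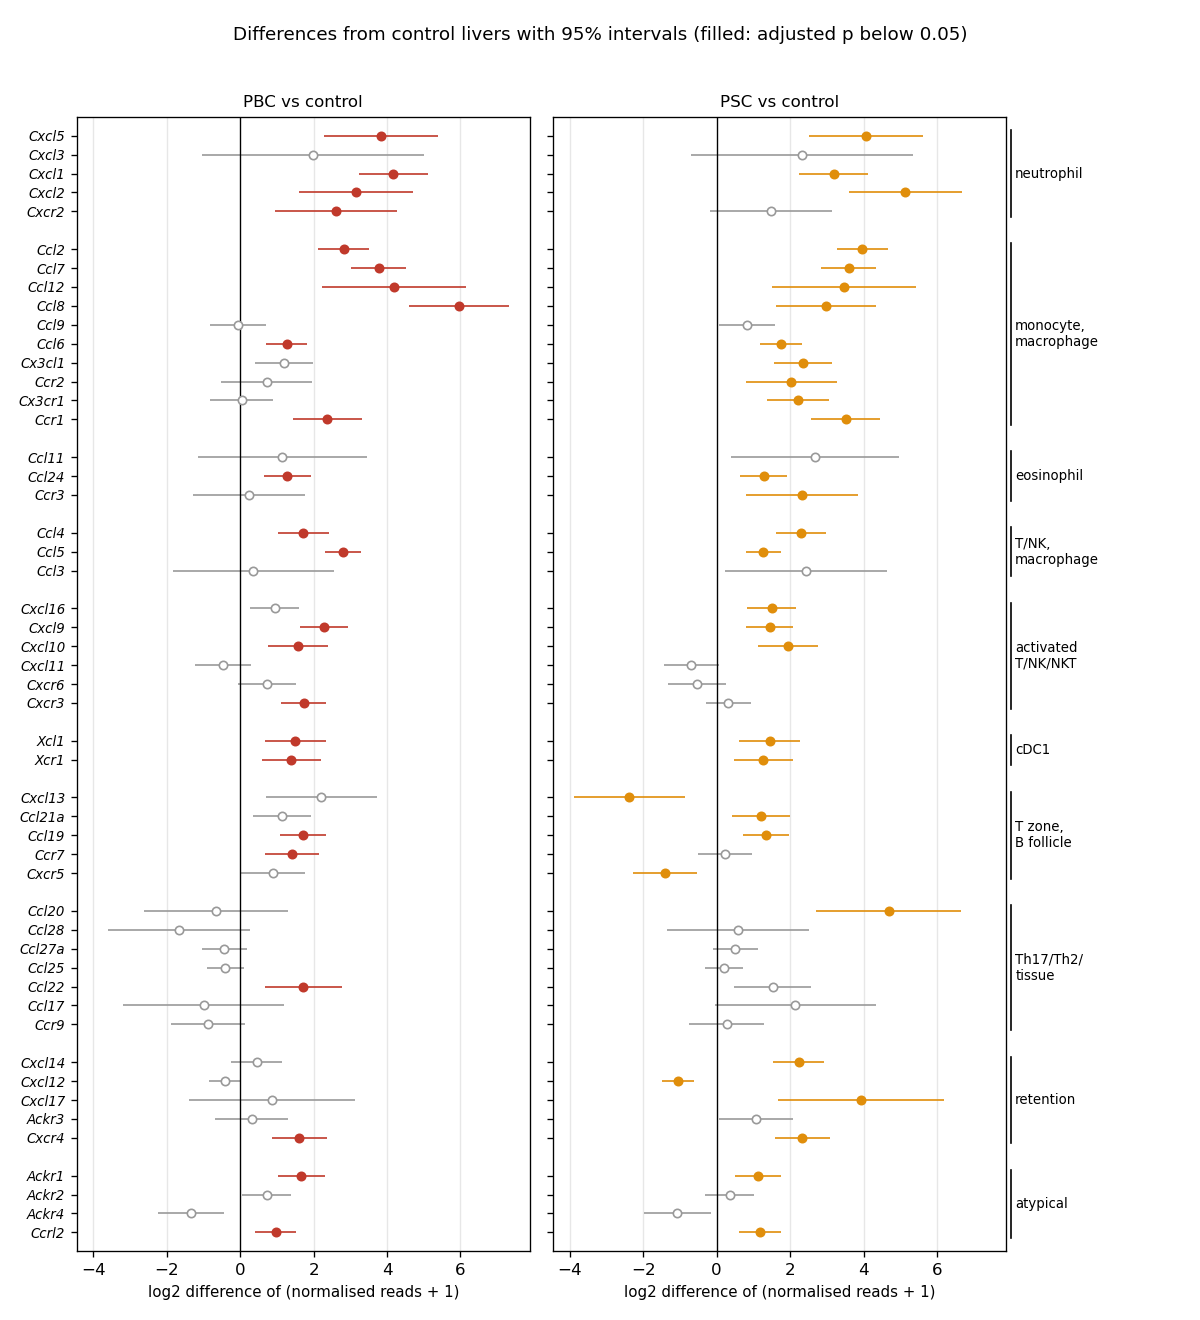
Log2 difference from control livers of the tested genes reported here, for PBC livers (left) and PSC livers (right), grouped by the leukocytes the genes act on; bars are 95% intervals and filled points have an adjusted p below 0.05. Ccl8 lies farthest to the right in PBC livers (5.96) and Cxcl2 in PSC livers (5.14), while Cxcl13, Cxcl12 and Cxcr5 lie left of 0 as filled points in PSC livers.

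The neutrophil group held ligands of Cxcr2 from 1 stretch of chromosome 5 (mm10) and the receptor itself. Of 5 tested members, 4 rose in PBC livers and 3 in PSC livers. Cxcl1 (chr5:90891245-90893115), a principal mouse neutrophil attractant, had 4364, 12048 and 6680.2 normalised reads in PBC livers, 4345, 3220.3 and 3213 in PSC livers, and 260.4, 431, 935 and 221 in control livers. Every cholangitis liver lay above every control. The log2 difference was 4.17 in PBC (SE 0.44, adjusted p = 0.000117) and 3.18 in PSC (SE 0.44, adjusted p = 0.000546), and PBC against PSC gave 0.99 (95% interval -0.02 to 1.99, adjusted p = 0.277).

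Cxcl2 (chr5:90903870-90905938), another Cxcr2 ligand, had 22.4, 46.2 and 31.7 normalised reads in PBC livers, 148, 102 and 143 in PSC livers, and 2.59, 0, 12.8 and 2.78 in control livers. PSC livers were the highest and the 3 groups did not overlap. The difference was 3.16 in PBC (SE 0.72, adjusted p = 0.0155) and 5.14 in PSC (SE 0.72, adjusted p = 0.000644). PBC against PSC gave -1.98 (adjusted p = 0.196), and it passed with a pseudocount of 10 (adjusted p = 0.0207), by DESeq2 (0.00556) and with the compared groups alone (0.0308). The PBC call for Cxcl2 ended without PBC 9 (adjusted p = 0.0583) and with the compared groups alone (0.0705), and a pseudocount of 10 gave 1.61 in PBC and 3.33 in PSC.

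Cxcl5 (chr5:90759298-90761625), a neutrophil attractant of epithelia, had 19.9, 43 and 14.8 normalised reads in PBC livers, 38.5, 21 and 26.3 in PSC livers, and 0, 1.28, 0 and 2.78 in control livers. Cxcl5 passed the filter through PBC and PSC livers alone, which only a gene high there could do. Only 3 control reads stood behind it, so the ratio of summed levels was 24.8 in PBC against control (95% counting interval 7.93 to 125) and 27.1 in PSC against control (8.90 to 135). The fitted differences were 3.83 (SE 0.72, adjusted p = 0.00508) and 4.07 (SE 0.72, adjusted p = 0.00297). With a pseudocount of 10 they were 1.63 and 1.79, and both stayed called. Cxcl3 (chr5:90786099-90788093) had 9.95, 0 and 21.2 normalised reads in PBC livers, 22.5, 0 and 19.7 in PSC livers and 0, 0, 5.11 and 0 in control livers, and was not called in any comparison. Counting intervals here take reads as independent and cover counting error only.

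Cxcr2 (chr1:74153988-74161246), the receptor of these ligands on neutrophils, had 64.7, 258 and 256 normalised reads in PBC livers, 139, 30.7 and 93.7 in PSC livers, and 22, 59, 56.2 and 5.55 in control livers. PBC livers lay above all controls, the lowest only just, and PSC 13 lay within the control range. The difference was 2.61 in PBC (SE 0.77, adjusted p = 0.0489) and 1.48 in PSC (SE 0.77, adjusted p = 0.219). The Cxcr2 call in PBC ended under 10 of 18 alternatives, among them leaving out control 1, control 4, PBC 8, PBC 9, PSC 11 or PSC 14, with an adjusted p of up to 0.186 (without PBC 9). Without control 4 the difference was 1.93, and without PBC 7 it was 3.27. Summed neutrophil markers ran from 42035 to 128904 normalised reads in PBC livers, 9638 to 19403 in PSC livers and 428 to 6550 in control livers. All 12 of these markers had reads, and Ly6g ran from 109 to 298 in PBC livers, 4.93 to 31 in PSC livers and 0 to 5.13 in control livers. Csf3r had 62.2 to 272 in PBC livers, 59.8 to 145 in PSC livers and 44.4 to 71.9 in control livers. It overlapped the controls in both models, while every other marker of the list lay above the controls in PBC livers. The part of these markers in the chemokine differences was not tested.

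The stretch just upstream of Cxcl1, Cxcl2 and Cxcl3 is shown because the 3 neighbouring genes hold the same letters there. The sequences are the 250 bases before each RefSeq start on GRCm38.p6, which is mm10, read 5′ to 3′ on the gene's own strand (plus for all 3), and capitals mark matches to the kappaB consensus, the 10-base motif bound by NF-kappaB factors.

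Cxcl1 chr5:90890995-90891244: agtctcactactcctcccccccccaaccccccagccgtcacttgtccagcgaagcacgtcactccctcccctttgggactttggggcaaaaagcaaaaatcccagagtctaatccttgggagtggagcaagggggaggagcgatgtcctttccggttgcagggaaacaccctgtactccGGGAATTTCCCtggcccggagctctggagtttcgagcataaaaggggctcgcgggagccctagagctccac
Cxcl2 chr5:90903649-90903898: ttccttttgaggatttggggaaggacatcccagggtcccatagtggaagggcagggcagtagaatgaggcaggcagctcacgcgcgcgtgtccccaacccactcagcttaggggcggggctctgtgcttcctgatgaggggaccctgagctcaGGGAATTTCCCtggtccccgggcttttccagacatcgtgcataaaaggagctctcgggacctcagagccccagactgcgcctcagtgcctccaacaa
Cxcl3 chr5:90785851-90786100: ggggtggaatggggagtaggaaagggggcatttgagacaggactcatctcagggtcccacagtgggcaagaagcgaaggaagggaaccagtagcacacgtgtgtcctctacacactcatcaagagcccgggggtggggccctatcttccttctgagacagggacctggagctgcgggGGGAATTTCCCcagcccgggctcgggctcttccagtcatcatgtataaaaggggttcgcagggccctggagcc

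Each of the 3 held GGGAATTTCCC, which is 2 overlapping matches, beginning 71 bases before the start in Cxcl1, 97 in Cxcl2 and 73 in Cxcl3. Of the 51 tested genes, 38 had a promoter in the RefSeq table (43 promoters), and 10 genes, or 23.3% of these promoters, held the kappaB consensus on either strand, against 7.25% of all 32851 promoters in the table. The others were Cxcl10, Ccl20, Ccl9, Ccr1, Ccr3, Ccrl2 and Ackr2. Cxcl3 carried the match and was not called, while Cxcl9 and Ccl8 rose and held none in this window. A match describes letters and is not a measured binding site.

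In the monocyte and macrophage group, with 10 tested members the largest, 6 of 10 rose in PBC livers (median 1.82) and 9 of 10 in PSC livers (median 2.66). Its ligands Ccl2, Ccl7, Ccl12 and Ccl8 lie in 1 stretch of chromosome 11, with the eosinophil attractant Ccl11 between Ccl7 and Ccl12. Ccl2 (chr11:82035575-82037452), the main ligand of Ccr2, had 995, 2138 and 709 normalised reads in PBC livers, 2900.1, 1962 and 2884 in PSC livers, and 181, 149, 189 and 132 in control livers. Both models stood clear of the controls. The difference was 2.82 in PBC (SE 0.32, adjusted p = 0.000212) and 3.97 in PSC (SE 0.32, adjusted p = 7.72e-06). PBC against PSC gave -1.15 (adjusted p = 0.108), which passed without PBC 8 (adjusted p = 0.0121).

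Ccl7 (chr11:82045710-82047521), also a Ccr2 ligand, had 448, 295 and 260.3 normalised reads in PBC livers, 369.6, 179.5 and 358 in PSC livers, and 29.8, 18, 28.1 and 18.1 in control livers. The 2 models overlapped each other and no control. The difference was 3.77 in PBC (SE 0.35, adjusted p = 7.01e-05) and 3.60 in PSC (SE 0.35, adjusted p = 3.52e-05), with 0.18 between them (95% interval -0.63 to 0.98). Ccl12 (chr11:82101843-82103403), a mouse ligand of Ccr2, had 157, 89.2 and 55 normalised reads in PBC livers, 45, 58.2 and 62.5 in PSC livers, and 7.77, 0, 30.6 and 1.39 in control livers. It rose in PBC by 4.19 (SE 0.91, adjusted p = 0.0118) and in PSC by 3.46 (SE 0.91, adjusted p = 0.0238). The Ccl12 call ended in PBC without PBC 7 (adjusted p = 0.0575), and in PSC without control 4 (0.0525), PSC 11 (0.0662), PSC 13 (0.0723) or PSC 14 (0.0964), and its size ran from 2.60 to 5.07 in PBC and from 1.94 to 4.34 in PSC over the alternatives.

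Ccl8 (chr11:82115183-82116801), a further member of the monocyte chemoattractant family, separated the models. It had 1231, 561 and 649.6 normalised reads in PBC livers, 91.9, 90.6 and 105 in PSC livers, and 2.59, 7.7, 40.9 and 16.7 in control livers. The 3 groups did not overlap. The difference was 5.96 in PBC (SE 0.63, adjusted p = 0.000131) and 2.97 in PSC (SE 0.63, adjusted p = 0.00839), and PBC exceeded PSC by 2.99 (SE 0.68, adjusted p = 0.0373). The Ccl8 call between the models ended whenever any 1 of their 6 libraries was left out (adjusted p of 0.0622 without PBC 8 to 0.135 without PSC 13), while both calls against controls held under all 18 alternatives. Against controls its size ran from 5.05 with a pseudocount of 10 to 6.55 without control 3 in PBC, and from 2.17 to 3.56 in PSC.

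Of the 3 receptors in the group, Ccr1 rose in both models, and Ccr2 and Cx3cr1 rose in PSC livers. Ccr1 (chr9:123962124-123968693), the receptor of Ccl6, Ccl9 and several other ligands on myeloid cells, had 413, 478 and 626 normalised reads in PBC livers, 1142, 762 and 1522 in PSC livers, and 77.7, 79.6, 250.3 and 52.8 in control livers. It rose by 2.38 in PBC (SE 0.43, adjusted p = 0.00419) and 3.51 in PSC (SE 0.43, adjusted p = 0.000249). Ccr2 (chr9:124101949-124113557), the receptor of Ccl2, had 54.7, 241 and 71.9 normalised reads in PBC livers, 244, 165 and 366 in PSC livers, and 50.5, 23.1, 115 and 88.8 in control livers. PBC 7 and PBC 9 lay within the control range and all PSC livers above it. The difference was 0.73 in PBC (95% interval -0.51 to 1.97, adjusted p = 0.454) and 2.04 in PSC (SE 0.58, adjusted p = 0.0322), and PBC against PSC was -1.31 (adjusted p = 0.276). The Ccr2 call ended without control 1 (adjusted p = 0.0733), control 2 (0.0710), PSC 11 (0.0933), PSC 13 (0.0502) or PSC 14 (0.152), and with equal totals (0.0561).

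Cx3cr1 (chr9:120048683-120068297), the fractalkine receptor of patrolling monocytes and some macrophages, had 42.3, 104 and 29.6 normalised reads in PBC livers, 219, 260.4 and 224 in PSC livers, and 60.9, 37.2, 51.1 and 51.4 in control livers. PSC livers stood clear of both other groups, and PBC livers surrounded the controls. The difference was 0.04 in PBC (SE 0.39, adjusted p = 0.965) and 2.22 in PSC (SE 0.39, adjusted p = 0.00298), and PBC was lower than PSC (log2 difference -2.18, SE 0.42, adjusted p = 0.0169). That last call ended without PBC 7 (adjusted p = 0.0588), PSC 11 (0.0582), PSC 13 (0.0919) or PSC 14 (0.0772). Its ligand Cx3cl1 (chr8:94772180-94782427), which is tethered to endothelium and epithelium, had 189, 147 and 123 normalised reads in PBC livers, 317, 362 and 332 in PSC livers, and 80.3, 71.9, 30.6 and 103 in control livers. The groups did not overlap, yet the PBC difference of 1.19 missed the threshold (SE 0.37, adjusted p = 0.0565) and passed by DESeq2 (0.0291) and without control 4 (0.0332). The Cx3cl1 difference in PSC was 2.35 (SE 0.37, adjusted p = 0.0014), and PBC against PSC was -1.16 (adjusted p = 0.144), which passed by DESeq2 (0.0188), with the compared groups alone (0.045) and without control 3 (0.0401).

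Ccl6 and Ccl9, rodent chemokines that act through Ccr1, were among the most abundant members. Ccl6 rose by 1.26 in PBC (SE 0.26, adjusted p = 0.00905) and 1.75 in PSC (SE 0.26, adjusted p = 0.00103). Ccl9 averaged 22842 ± 5623 normalised reads in PBC livers, 42087 ± 7139 in PSC livers and 26422 ± 16005 in control livers (SD, n = 3, 3 and 4), and was not called in either model. Control 3 held 49468 normalised reads of Ccl9, the highest of all 10 libraries, and without it the PSC difference passed (adjusted p = 0.0105). Summed monocyte and recruited macrophage markers ran from 34698 to 50087 normalised reads in PBC livers, 82804 to 128782 in PSC livers and 15482 to 23320 in control livers. Spp1, which bile duct cells also make, supplied 50963 to 91721 of the PSC sums. Ly6c2 had 194 to 396 normalised reads in PBC livers, 73.2 to 80.9 in PSC livers and 13.9 to 48.5 in control livers. Chil3 had 502 to 2101 in PBC livers, 137 to 423 in PSC livers and 11.1 to 51.8 in control livers. Trem2 was higher in PSC livers, with 1800 to 2154 against 250 to 545 in PBC livers. Plac8, Fcgr1, Itgam, Cd68 and Lyz2 overlapped between the models. Summed Kupffer cell markers ran from 74079 to 127212 in PBC livers, 43091 to 62265 in PSC livers and 24573 to 42326 in control livers. In PSC livers Clec4f lay above every control, while Vsig4, Cd5l and Marco overlapped the controls. Timd4 had 905 to 2576 in PBC livers, 319 to 418 in PSC livers and 415 to 875 in control livers. All 9 and all 5 of these markers had reads, and their part in the chemokine differences was not tested.

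**Figure D2:**
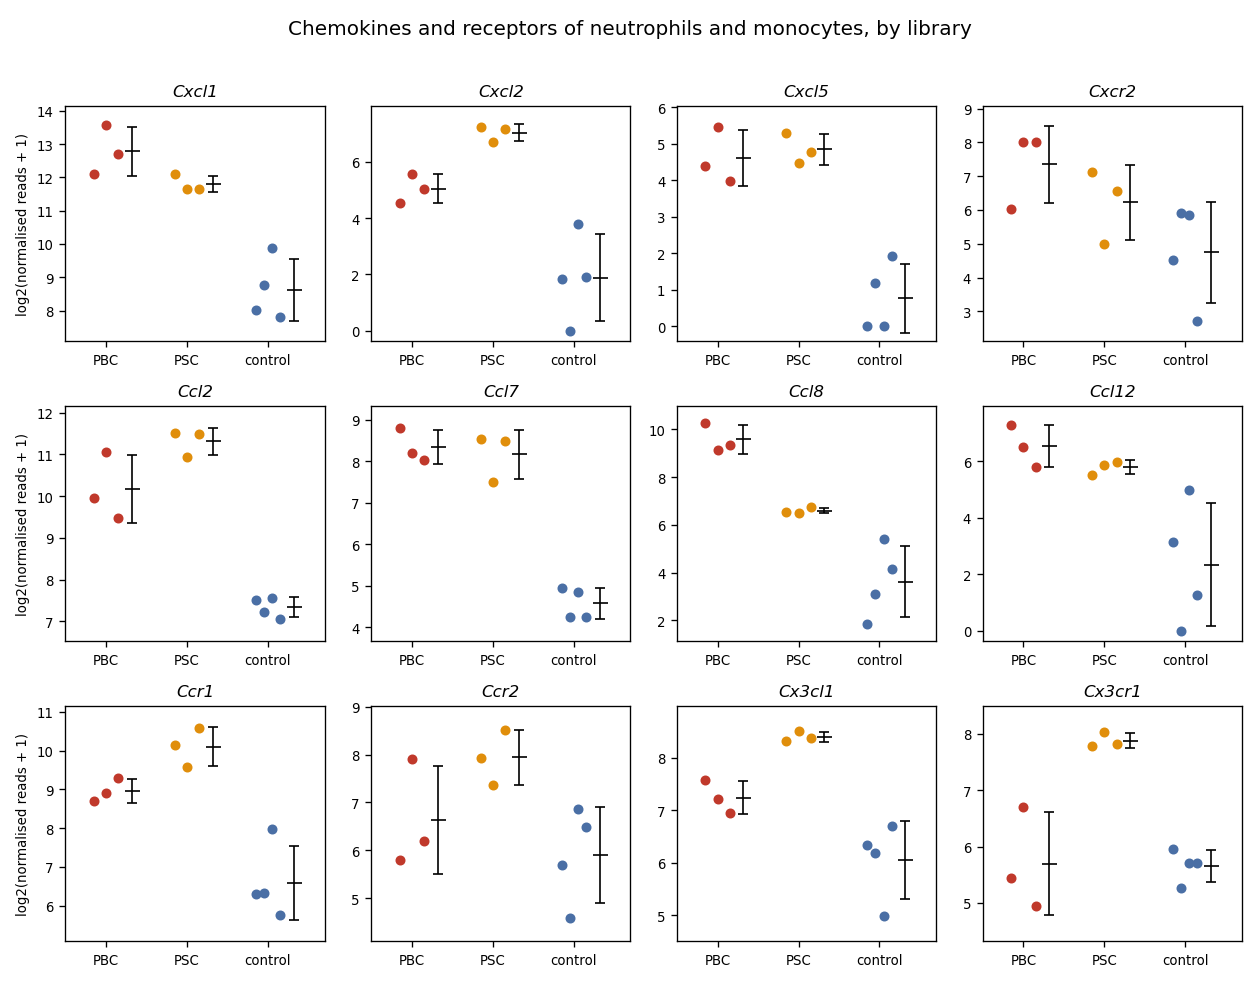
Log2 of normalised reads plus 1 for 12 chemokine and receptor genes of neutrophils and monocytes, with 1 point per library (PBC, PSC and control from left to right) and the mean ± SD of the log2 values as a dash with bars. Each panel has its own axis, which starts at or just below 0 for Cxcl2, Cxcl5 and Ccl12 and above 0 for the others. Cxcl1, Ccl2 and Ccl7 lie above the controls in every cholangitis liver, Ccl8 is highest in PBC livers, and Cx3cr1 is raised in PSC livers and not in PBC livers.

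The eosinophil group held 3 tested members. Ccl24 (chr5:135569935-135573049), the second eotaxin, had 1191, 809 and 1519 normalised reads in PBC livers, 1783, 796 and 1025 in PSC livers, and 438, 372, 608 and 476 in control livers. It rose by 1.28 in both PBC (SE 0.30, adjusted p = 0.0168) and PSC (SE 0.30, adjusted p = 0.0128). The Ccl24 call ended in PBC without PBC 7 (adjusted p = 0.0591) or PBC 9 (0.0951), and in PSC without PSC 11 (0.0704). Ccr3, the eotaxin receptor, had 14.9, 25.5 and 8.46 normalised reads in PBC livers, 103, 45.3 and 62.5 in PSC livers, and 36.3, 2.57, 15.3 and 13.9 in control livers. It rose by 2.33 in PSC (SE 0.71, adjusted p = 0.0424) and gave 0.24 in PBC (adjusted p = 0.863). The PSC call for Ccr3 ended under 9 of 17 alternatives, among them leaving out control 2, control 3, control 4 or any PSC library (adjusted p of up to 0.161, without PSC 11), and its size fell to 1.66 with a pseudocount of 10 and 1.69 without control 2.

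Ccl11, the first eotaxin, had 9.95, 0 and 25.4 normalised reads in PBC livers, 16.9, 25.9 and 13.2 in PSC livers and 2.59, 2.57, 5.11 and 0 in control livers, and was not called by limma. Its PSC difference of 2.67 (adjusted p = 0.11) passed by DESeq2 (0.0455), with the compared groups alone (0.0368) and without PBC 8 (0.0304). Summed eosinophil markers ran from 42.3 to 174 in PBC livers, 58.2 to 87.1 in PSC livers and 2.57 to 35.8 in control livers. Epx, eosinophil peroxidase, had 4.97 to 16.9 normalised reads in PBC livers and 0 in every PSC and control liver, while Siglecf had 14.9 to 30.3 in PBC livers, 51.8 to 60.0 in PSC livers and 2.57 to 15.3 in control livers. All 4 markers had reads in some library, and their part was not tested.

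Among the CC chemokines Ccl3, Ccl4 and Ccl5, which attract activated T cells, NK cells and macrophages, Ccl5 separated the models most firmly. Ccl5 (chr11:83525781-83530519) had 2168, 1649 and 1669.5 normalised reads in PBC livers, 652, 674 and 557 in PSC livers, and 323, 231, 307 and 194 in control livers. The 3 groups did not overlap. It rose by 2.81 in PBC (SE 0.23, adjusted p = 2.07e-05) and 1.27 in PSC (SE 0.23, adjusted p = 0.00296), and PBC exceeded PSC by 1.53 (SE 0.24, adjusted p = 0.00543). All 3 calls for Ccl5 held under all 18 alternatives.

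Ccl4 (chr11:83662584-83664682) ran the other way in rank, with 182, 167 and 118 normalised reads in PBC livers, 274, 260.4 and 168 in PSC livers, and 49.2, 37.2, 66.4 and 36.1 in control livers. It rose by 1.72 in PBC (SE 0.32, adjusted p = 0.00484) and 2.29 in PSC (SE 0.32, adjusted p = 0.000644), and the models did not differ beyond their spread (log2 difference -0.57, 95% interval -1.31 to 0.17). Ccl3 stayed at 21.6 normalised reads or fewer in every library and was not called, and its PSC difference passed with a pseudocount of 10 (0.0469).

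The ligands of Cxcr3 and Cxcr6 attract activated T cells, NK cells and NKT cells, and those of Cxcr3 are classic interferon targets. Of 6 members tested, 3 rose in each model. Cxcl9 (chr5:92321331-92328117) had 21707, 24217 and 13219 normalised reads in PBC livers, 10719.8, 7958 and 13975 in PSC livers, and 3817, 3305, 6496 and 2849 in control livers. Both models lay above every control and overlapped each other. The difference was 2.29 in PBC (SE 0.30, adjusted p = 0.000525) and 1.44 in PSC (SE 0.30, adjusted p = 0.00762), with 0.85 between them (95% interval 0.16 to 1.54, adjusted p = 0.185). The PSC call for Cxcl9 ended without PSC 14 (adjusted p = 0.0549).

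Cxcl10 (chr5:92346641-92348890) had 1201, 2997 and 1105 normalised reads in PBC livers, 3196, 1372 and 1954 in PSC livers, and 739.6, 469.8, 353 and 643 in control livers. It rose by 1.58 in PBC (SE 0.38, adjusted p = 0.0201) and 1.95 in PSC (SE 0.38, adjusted p = 0.00527). The PBC call for Cxcl10 ended without control 3 (adjusted p = 0.0506) and with equal totals (0.0695). Cxcl11 lies next to it and had 129 to 379 normalised reads in PBC livers, 182 to 253 in PSC livers and 238 to 456 in control livers, and was not called. C57BL/6 mice are known to carry a frameshift in Cxcl11. Cxcl10 and Cxcl11 overlap the gene Art3 in the table, and the sources used here do not say how reads on overlapping genes were assigned. The same holds for Xcl1, Ccl6, Cxcr5, Ccr9, Ccl25, Ccl27a and Ackr4, each of which overlaps a gene on the opposite strand.

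The Cxcl10 promoter is shown because it was the one promoter among these genes to hold both motifs searched, the kappaB consensus and the core of the interferon-stimulated response element (GAAA, any 2 bases, GAAA). It is given as above, on the minus strand, with both kinds of match in capitals.

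Cxcl10 chr5:92348890-92349139: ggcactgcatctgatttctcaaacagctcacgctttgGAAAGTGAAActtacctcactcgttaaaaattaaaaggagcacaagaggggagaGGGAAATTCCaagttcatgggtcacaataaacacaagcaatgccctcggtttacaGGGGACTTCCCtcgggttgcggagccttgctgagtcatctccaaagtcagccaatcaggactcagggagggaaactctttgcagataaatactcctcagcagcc

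The response element match began 213 bases before the start. The kappaB matches began 159, 104 and 103 bases before it, the last 2 overlapping each other. The response element core was found in 3 genes (Cxcl10, Ccl19 and Cxcl14), or 6.98% of the members' promoters, against 2.98% of all 32851. The Cxcl9 promoter held neither motif in this window.

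Cxcr3 (chrX:101731532-101734147), the receptor of Cxcl9 and Cxcl10 on activated T cells, had 346, 249 and 220.1 normalised reads in PBC livers, 116, 90.6 and 92 in PSC livers, and 67.4, 84.7, 66.4 and 106 in control livers. PBC livers stood clear of both other groups, and PSC livers overlapped the controls. The difference was 1.73 in PBC (SE 0.29, adjusted p = 0.00228) and 0.31 in PSC (95% interval -0.30 to 0.93, adjusted p = 0.499), and PBC exceeded PSC by 1.42 (SE 0.31, adjusted p = 0.0289). The call for Cxcr3 between the models ended without PBC 7 (adjusted p = 0.0988), PSC 11 (0.0622), PSC 13 (0.136) or PSC 14 (0.143), and with equal totals (0.0567). The ligands Cxcl9 and Cxcl10 were called in both models, and the receptor in PBC.

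Cxcl16 (chr11:70454234-70459988), a membrane-bound ligand of Cxcr6, had 2556, 3282 and 1875 normalised reads in PBC livers, 2983, 3822 and 4499.6 in PSC livers, and 1136, 793, 2217 and 1467 in control livers. It rose by 1.50 in PSC (SE 0.31, adjusted p = 0.00701), and the PBC difference of 0.94 missed the threshold (SE 0.31, adjusted p = 0.0721) and passed without control 3 (0.0192). Cxcr6 (chr9:123806474-123811757), the receptor of liver NKT cells and resident T cells, had 731, 579.9 and 249.7 normalised reads in PBC livers, 156, 233 and 207 in PSC livers, and 211, 228, 449.6 and 305 in control livers. It was not called against controls (0.73 in PBC, adjusted p = 0.226, and -0.54 in PSC, adjusted p = 0.348). PBC against PSC gave 1.27 for Cxcr6 (adjusted p = 0.117), which passed by DESeq2 (0.0163) and without PBC 9 (0.0271). The Cxcr6 model overlaps Fyco1 and the Cxcl16 model overlaps Zmynd15.

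Summed T cell markers ran from 1805 to 2401 normalised reads in PBC livers, 425 to 478 in PSC livers and 393 to 677 in control livers. NK cell markers ran from 1610 to 1726 in PBC livers, 1245 to 1489 in PSC livers and 612 to 1165 in control livers. Within this list Nkg7 had 658 to 884 in PBC livers, 228 to 288 in PSC livers and 150.3 to 199 in control livers. Klrb1c, which marks NK cells more narrowly, had 135 to 215 in PBC livers, 303 to 335 in PSC livers and 158 to 419 in control livers, and Ncr1 overlapped the controls in PBC livers as well. Cd8a had 559 to 827 normalised reads in PBC livers, 30.7 to 65.7 in PSC livers and 20.7 to 56.2 in control livers, while Cd4 had 14.9 to 70.1 in PBC livers, 4.85 to 19.7 in PSC livers and 10.2 to 38.9 in control livers. All 7 markers of each list had reads, and their part in the levels of Ccl5, Cxcr3 and Cxcr6 was not tested.

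**Figure D3:**
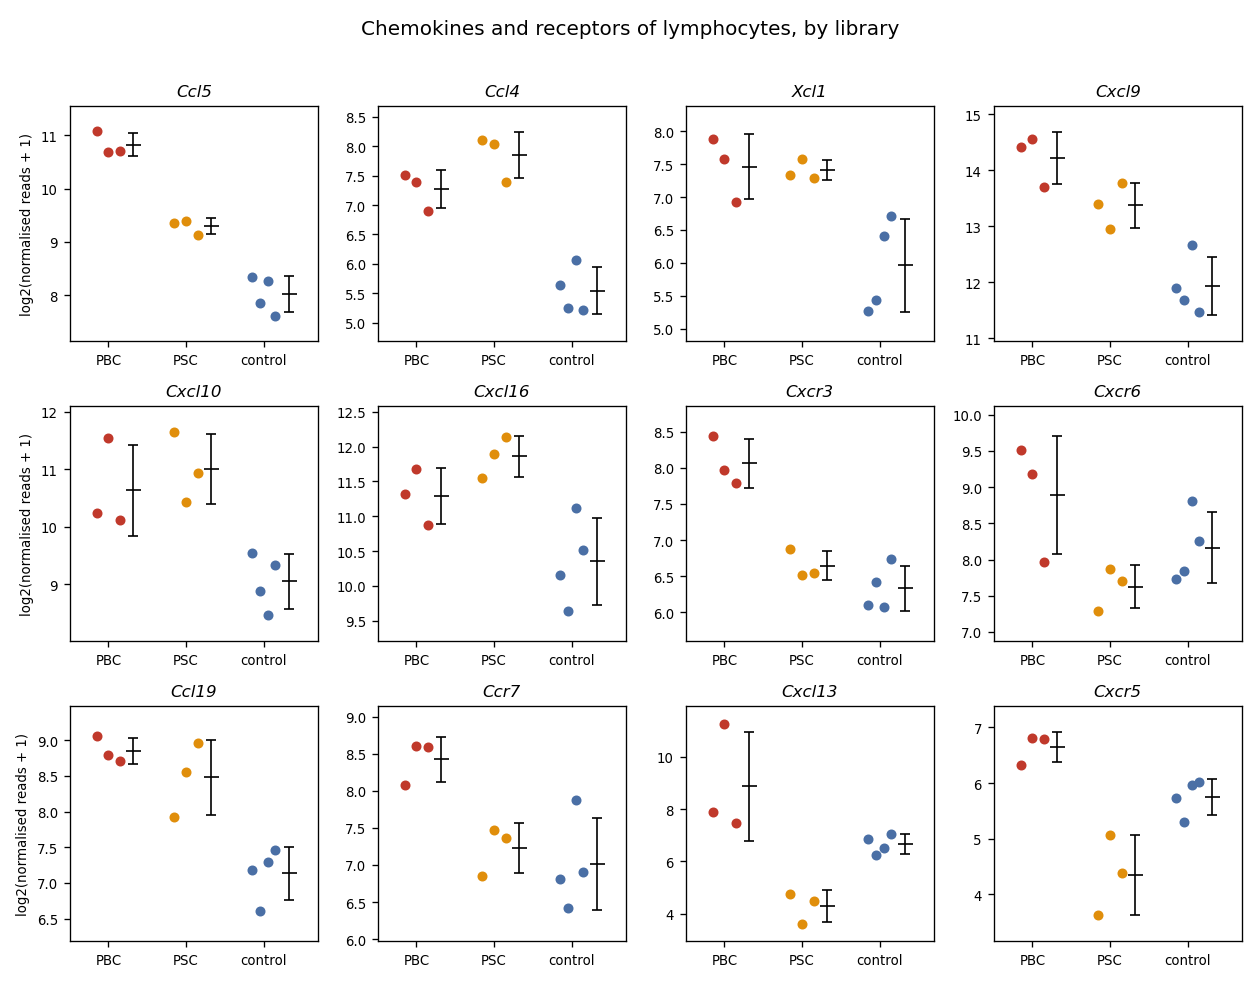
Log2 of normalised reads plus 1 for 12 chemokine and receptor genes of lymphocytes, with 1 point per library (PBC, PSC and control from left to right) and the mean ± SD of the log2 values as a dash with bars. Each panel has its own axis, which does not start at 0. Ccl5 forms 3 separate levels, Cxcr3 is raised in PBC livers alone of the 2 models, and Cxcl13 and Cxcr5 are lowest in PSC livers.

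Xcl1, made by activated CD8 T cells and NK cells, and its receptor Xcr1, found on cross-presenting dendritic cells, rose together in both models. Xcl1 (chr1:164931645-164935523) had 236, 189.6 and 121 normalised reads in PBC livers, 161, 191 and 156 in PSC livers, and 37.6, 42.4, 84.3 and 104 in control livers, and its difference was 1.50 in PBC (SE 0.38, adjusted p = 0.0272) and 1.45 in PSC (SE 0.38, adjusted p = 0.0245). Xcr1 (chr9:123852315-123862030) had 79.6, 194 and 118 normalised reads in PBC livers, 146, 90.6 and 107 in PSC livers, and 36.3, 35.9, 51.1 and 66.6 in control livers, and its difference was 1.40 in PBC (SE 0.37, adjusted p = 0.0329) and 1.27 in PSC (SE 0.37, adjusted p = 0.0373). No cholangitis liver overlapped a control for either gene, and PBC against PSC gave 0.06 for Xcl1 (95% interval -0.83 to 0.94) and 0.12 for Xcr1 (-0.74 to 0.98).

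These calls were not firm. For Xcl1 they ended under 5 of 18 alternatives in each model, among them leaving out control 1, control 2 or PBC 7 in PBC (adjusted p of up to 0.109) and control 1, control 2 or any PSC library in PSC (up to 0.0887). For Xcr1 they ended under 8 in PBC, among them leaving out control 1, control 2, PBC 8, PBC 9 or PSC 14 (up to 0.0969), and 7 in PSC, among them leaving out control 1, control 2 or any PSC library (up to 0.147). Dendritic cell markers summed to 796 to 879 normalised reads in PBC livers, 693 to 832 in PSC livers and 317 to 687 in control livers. Clec9a, which marks the same dendritic cells as Xcr1, had 87 to 113 in PBC livers, 51.6 to 56.6 in PSC livers and 16.7 to 51.1 in control livers. Flt3 and Batf3 also lay above every control in both models. Cd209a, by contrast, had 0 to 6.37 in PBC livers, 34.7 to 88.7 in PSC livers and 6.42 to 22.2 in control livers. Siglech, a marker of plasmacytoid dendritic cells, had 14.9 to 33.9 in PBC livers, 46.0 to 162.7 in PSC livers and 35.9 to 86.9 in control livers, and Zbtb46 overlapped the controls in both models. All 6 markers had reads, and their part was not tested.

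The group that guides lymphocytes into T cell zones and B cell follicles split between the models. Cxcl13 (chr5:95956924-95961068), the B cell follicle chemokine, had 234, 2466 and 178 normalised reads in PBC livers, 26.3, 11.3 and 21.4 in PSC livers, and 117, 74.5, 89.4 and 132 in control livers. Every PBC liver lay above and every PSC liver below the controls, and PBC 8 stood far above the other two PBC livers. PBC exceeded PSC by 4.58 (SE 0.75, adjusted p = 0.00669), and by 3.39 without PBC 8. PSC was lower than control (log2 difference -2.38, SE 0.70, adjusted p = 0.038), and the PBC difference from control of 2.21 missed the threshold (SE 0.70, adjusted p = 0.0625). Without PBC 8 the PBC difference was 1.01 (adjusted p = 0.0988), and it passed by edgeR (0.016) and without PBC 9 (0.0414). DESeq2 gave no adjusted p for this difference.

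The PSC call for Cxcl13 ended under 11 of 18 alternatives, among them each omission of a control or PSC library (adjusted p of up to 0.131, without PSC 13), a pseudocount of 10 (0.0605), equal totals (0.0592) and edgeR (0.0758). Cxcr5 (chr9:44511788-44561878), the receptor of Cxcl13 on B cells, had 79.6, 112 and 110.0 normalised reads in PBC livers, 11.3, 32.4 and 19.7 in PSC livers, and 51.8, 38.5, 61.3 and 63.9 in control livers, in the same order as its ligand. PBC exceeded PSC by 2.30 (SE 0.43, adjusted p = 0.0143), PSC was lower than control (log2 difference -1.40, SE 0.40, adjusted p = 0.0341), and PBC against control gave 0.90 (SE 0.40, adjusted p = 0.175). The Cxcr5 calls ended without PSC 11 or PSC 14 (adjusted p of 0.0574 and 0.0667 between the models, 0.143 and 0.108 against control), and against control also without control 1 (0.0736), control 3 (0.0569) or control 4 (0.0744). Summed B cell markers ran from 1219 to 1693 normalised reads in PBC livers, 308 to 442 in PSC livers and 499 to 771 in control livers, all 6 markers with reads, and their part was not tested.

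Ccl19 (chr4:42754525-42756528), a ligand of Ccr7 made by stromal cells of T cell zones, had 532, 441 and 419 normalised reads in PBC livers, 242, 375 and 498 in PSC livers, and 144, 96.3, 156 and 175 in control livers. It rose by 1.72 in PBC (SE 0.29, adjusted p = 0.00259) and 1.35 in PSC (SE 0.29, adjusted p = 0.0087), and the PSC call ended without PSC 14 (adjusted p = 0.0672). Ccr7 (chr11:99144199-99155078), the receptor of naive T cells and mature dendritic cells, had 269, 389 and 385 normalised reads in PBC livers, 114, 176 and 164 in PSC livers, and 111, 84.7, 235 and 119 in control livers. It rose by 1.42 in PBC (SE 0.34, adjusted p = 0.0196), while PSC livers overlapped the controls (log2 difference 0.22, SE 0.34, adjusted p = 0.701). The PBC call for Ccr7 ended without control 1 (adjusted p = 0.0529) or PBC 9 (0.0876), and PBC against PSC gave 1.19 (adjusted p = 0.11), which passed without control 3 (0.0442) and by DESeq2 (0.0305).

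Ccl21a, the other Ccr7 ligand, averaged 218 ± 106 normalised reads in PBC livers, 218 ± 67.2 in PSC livers and 92 ± 21.2 in control livers (SD, n = 3, 3 and 4). It rose by 1.21 in PSC (SE 0.37, adjusted p = 0.0413), a call that ended under 7 of 18 alternatives, among them leaving out control 1, control 2, control 4, PSC 13 or PSC 14 (adjusted p of up to 0.188). In PBC it gave 1.13 (adjusted p = 0.067). Its model merges Ccl21a with Gm1987, a near-identical copy, and Ccl19 and Ccl21a overlap a gene on the other strand, so the split of reads between them is uncertain.

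Ccl20, the ligand of Ccr6 on Th17 cells, was the one tested member of its group called between the models, and it had few reads. Ccl20 (chr1:83116765-83119166) had 0, 1.59 and 0 normalised reads in PBC livers, 49.7, 45.3 and 72.3 in PSC livers, and 5.18, 2.57, 0 and 0 in control livers. It passed the filter through PSC livers alone, so a difference was bound to appear. In reads it was 1 in PBC livers against 125 in PSC livers and 6 in control livers. PSC exceeded control by 4.68 on the fitted scale (SE 0.91, adjusted p = 0.00537), and PBC was lower than PSC (log2 difference -5.34, SE 0.98, adjusted p = 0.0124). The ratio of PSC to PBC levels was 81.9 (95% counting interval 14.4 to 3261). With a pseudocount of 10 the fitted differences were 2.46 and -2.62. Its receptor Ccr6 was below the filter, with at most 11.2 normalised reads in any library.

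The Ccl20 promoter, given as above on the plus strand, held 1 kappaB match, shown in capitals and beginning 80 bases before the start.

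Ccl20 chr1:83116516-83116765: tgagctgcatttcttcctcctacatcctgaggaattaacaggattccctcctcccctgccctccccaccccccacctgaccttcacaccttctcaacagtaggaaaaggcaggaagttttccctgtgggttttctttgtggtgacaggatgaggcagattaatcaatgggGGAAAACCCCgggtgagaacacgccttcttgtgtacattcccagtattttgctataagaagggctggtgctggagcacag

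Summed cholangiocyte markers ran from 1033 to 1179 normalised reads in PBC livers, 2819 to 2965 in PSC livers and 461 to 800 in control livers, with reads of all 4 markers. All 4 lay above every control in PSC livers. In PBC livers Krt19 and Sox9 did so and Krt7 overlapped the controls. Epcam had 67.1 to 156 in PBC livers against 132 to 279 in control livers. The part of these markers in the levels of Ccl20, Cxcl14, Cx3cl1 and Cxcl5 was not tested.

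Of the other members that act on Th2, regulatory and tissue-homing lymphocytes, Ccl22 alone was called. Ccl22 (chr8:94745590-94751699), a Ccr4 ligand of dendritic cells and macrophages, had 54.7, 121 and 118 normalised reads in PBC livers, 67.5, 61.5 and 125 in PSC livers, and 23.3, 18, 20.4 and 63.9 in control livers. It rose by 1.72 in PBC (SE 0.49, adjusted p = 0.0409), and the PSC difference of 1.52 just missed (SE 0.49, adjusted p = 0.0514). The PBC call for Ccl22 ended under 12 of 18 alternatives, among them leaving out control 1, control 2, control 3, PBC 8, PBC 9 or any PSC library (adjusted p of up to 0.155), and the PSC difference passed under 5, with 0.0145 without control 4. Ccl17, the other Ccr4 ligand, had 0, 22.3 and 23.3 normalised reads in PBC livers, 32.8, 79.2 and 138 in PSC livers, and 7.77, 10.3, 48.5 and 13.9 in control livers, and was not called by limma, while its PSC difference of 2.14 passed by DESeq2 (0.0332), with the compared groups alone (0.0423) and without PBC 7 (0.0438). Ccl25 and its receptor Ccr9, known from gut homing, and Ccl27a and Ccl28, ligands of Ccr10, were not called by limma in any of the 3 comparisons. Ccl27a averaged 1102 ± 283 normalised reads in PBC livers, 2136 ± 642 in PSC livers and 1503 ± 500.1 in control livers (SD, n = 3, 3 and 4), and PBC against PSC passed by DESeq2 (0.0416).

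Cxcl12 and its receptor Cxcr4, which hold leukocytes in place, moved in opposite directions in PSC livers. Cxcl12 (chr6:117168535-117181368) had 17574, 21703 and 18513 normalised reads in PBC livers, 13173, 13049 and 10912 in PSC livers, and 29530.1, 22531, 20165 and 32537 in control livers. PSC livers lay below all others. The difference was -1.06 in PSC (SE 0.20, adjusted p = 0.00476) and -0.42 in PBC (SE 0.20, adjusted p = 0.205). Cxcr4 (chr1:128588199-128592299) had 527, 771 and 660.2 normalised reads in PBC livers, 1046, 998 and 1164 in PSC livers, and 207, 185, 439 and 117 in control livers. It rose by 1.61 in PBC (SE 0.35, adjusted p = 0.0115) and 2.34 in PSC (SE 0.35, adjusted p = 0.000997), and its PBC call ended without PBC 9 (adjusted p = 0.0523).

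Cxcl14 (chr13:56288647-56296551), a homeostatic chemokine of epithelia, had 420.3, 245 and 199 normalised reads in PBC livers, 935, 839 and 1076 in PSC livers, and 288, 121, 194 and 239 in control livers. PSC livers stood clear of both other groups. It rose by 2.23 in PSC (SE 0.32, adjusted p = 0.000772), gave 0.45 in PBC (adjusted p = 0.403), and was lower in PBC than in PSC (log2 difference -1.78, SE 0.34, adjusted p = 0.0162). That last call ended without PBC 9 (adjusted p = 0.0547), PSC 11 (0.0582), PSC 13 (0.0565) or PSC 14 (0.0937). Cxcl17 had 4.97, 0 and 0 normalised reads in PBC livers, 16.9, 12.9 and 13.2 in PSC livers and 0 in every control liver. It also passed the filter through PSC livers alone. Its 34 PSC reads against 0 control reads make it at least 13.2-fold higher in PSC livers, with a floor of 3 reads over the control group, and its call (adjusted p = 0.0255) ended without control 1 (0.0539). With TMM scaling, with a filter at 50 or without any 1 PSC library it no longer passed the filter and was not tested. Its gene model overlaps Pou2f2 on the same strand and 4732471J01Rik on the opposite strand, so reads of these genes may be counted together. Markers of stellate cells, a known source of Cxcl12, summed to 10817 to 23223 normalised reads in PBC livers, 15896 to 18133 in PSC livers and 11894 to 19753 in control livers, with overlap throughout. Lrat, Dcn and Des overlapped between the groups as well. Pdgfrb did not, with 176 to 217 in PBC livers, 258 to 296 in PSC livers and 112 to 127 in control livers. All 4 markers had reads. Sinusoidal endothelial cell markers summed to 4690 to 8865 in PBC livers, 5018 to 8304 in PSC livers and 7110 to 12205 in control livers. Stab2, Lyve1 and Clec4g each overlapped the controls in both models. The part of both marker lists in the Cxcl12 difference was not tested.

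The atypical receptors bind chemokines without signalling through G proteins. Ackr1 (chr1:173331886-173333674), which carries chemokines across venular endothelium, had 333, 379 and 415 normalised reads in PBC livers, 203, 279.8 and 301 in PSC livers, and 84.2, 95, 128 and 183 in control livers. It rose by 1.67 in PBC (SE 0.29, adjusted p = 0.00332) and 1.13 in PSC (SE 0.29, adjusted p = 0.022), and its PSC call ended without control 1 (adjusted p = 0.0637), control 2 (0.0503), PSC 13 (0.0819) or PSC 14 (0.112). Ccrl2, which binds chemerin, rose by 0.97 in PBC (SE 0.26, adjusted p = 0.0346) and 1.17 in PSC (SE 0.26, adjusted p = 0.0108). The Ccrl2 call ended under 8 of 18 alternatives in PBC, among them leaving out control 2, control 3, any PBC library or PSC 13 (adjusted p of up to 0.111, with equal totals), and without PSC 11 (0.0566) or PSC 13 (0.0507) in PSC.

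Ackr4 (chr9:104084157-104126933), the scavenger of Ccl19 and Ccl21, had 87, 115 and 42.3 normalised reads in PBC livers, 56.3, 87.3 and 149.6 in PSC livers, and 176, 125, 235 and 255 in control livers. PBC livers lay below all controls, but -1.33 in PBC missed the threshold (SE 0.42, adjusted p = 0.0609) and passed by DESeq2 (0.0185), without control 2 (0.0449) and without PBC 8 (0.0252). In PSC it gave -1.07 (adjusted p = 0.104). Ackr2, the scavenger of inflammatory CC chemokines, and Ackr3, that of Cxcl12, were not called by limma in the 3 comparisons, and Ackr3 passed in PSC without control 3 (0.0437).

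**Figure D4:**
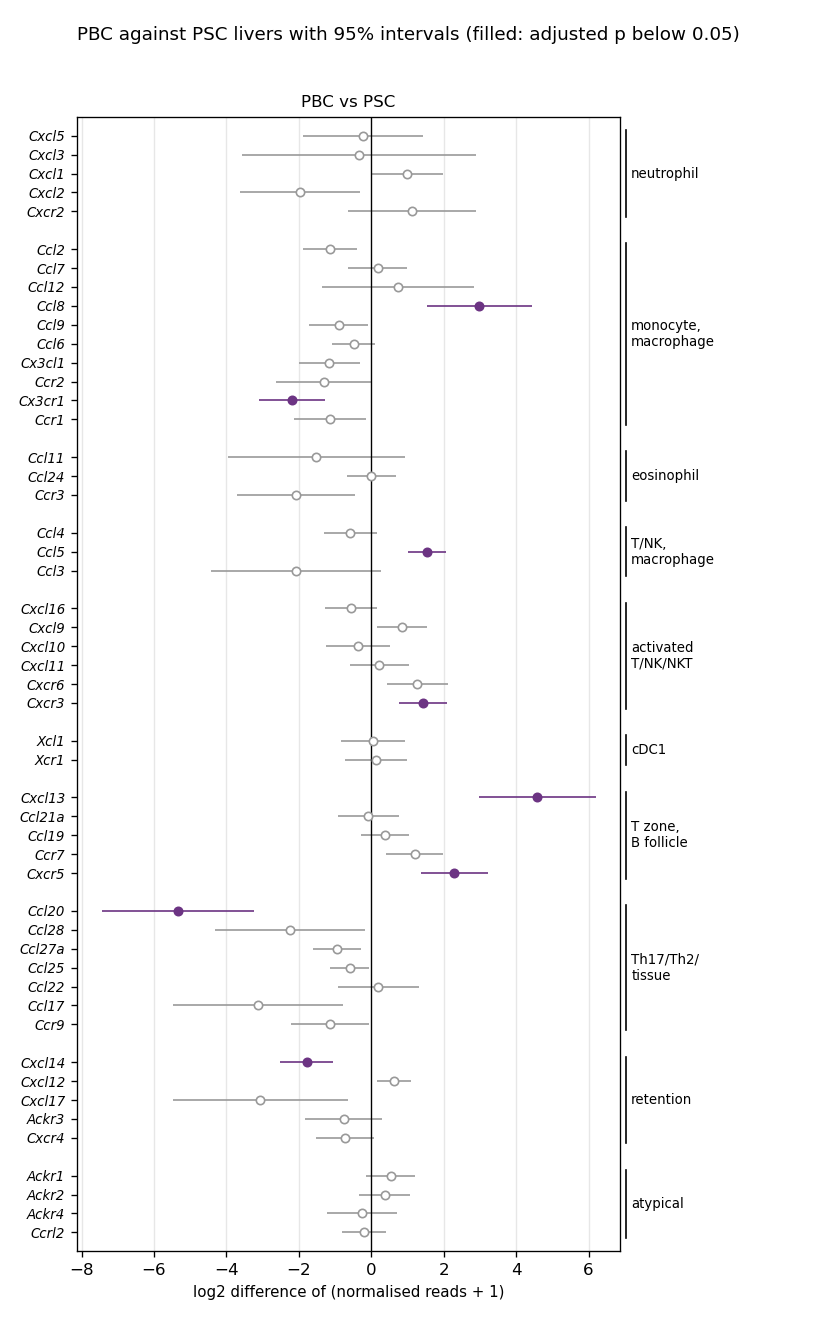
Log2 difference of PBC livers from PSC livers for the tested genes reported here, with 95% intervals; filled points have an adjusted p below 0.05 and values right of 0 are higher in PBC livers. Cxcl13 (4.58) and Ccl8 (2.99) lie farthest to the right among the filled points and Ccl20 (-5.34) farthest to the left.

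Levels of different genes were compared per kb of exon, as mean normalised reads per kb of GENCODE exon sequence. Ccl9 was the highest member in each group, at 7501 in PBC livers, 13820 in PSC livers and 8677 in control livers. In PBC livers Cxcl9 (6537), Cxcl1 (4105) and Ccl6 (3708) followed. In PSC livers Ccl6 (5293), Cxcl9 (3609) and Ccl2 (2269) followed, and in control livers Cxcl12 (3203), Ccl6 (1618) and Cxcl9 (1365).

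The 7 genes below the filter with some reads were Ccl1, Ccr10, Ccr6, Ccr8, Ccr4, Ccr1l1 and Cxcr1, and none was tested. The highest single values were 24.9 normalised reads of Ccl1 in PBC 7, 21.2 of Ccr10 in PBC 9 and 17.4 of Ccr8 in PBC 7. Cxcr1, the second receptor of neutrophil attractants, had 0, 4.78 and 10.6 in PBC livers, 2.81, 3.23 and 1.64 in PSC livers, and 1.3, 1.28, 0 and 0 in control livers.

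Genes of the same pathway outside the symbol rule were listed as platelet chemokines and other attractants, signalling genes, and genes that cut or present chemokines. Of 39 symbols 37 were in the table, 2 being listed also under an older name, and all 37 were tested. In PBC livers 17 of the 37 rose, where 7.60% of all tested models did. In PSC livers 12 rose and 2 fell (Gnai3 and Ndst1), where 8.25% and 6.48% of all models did, and the share that fell was near that background. The list was chosen with earlier results of these data known, so these counts describe it and do not test the pathway. The platelet chemokine Ppbp averaged 555 ± 458 normalised reads in PBC livers, 152 ± 110 in PSC livers and 30.3 ± 8.83 in control livers (SD, n = 3, 3 and 4), and rose by 3.89 in PBC (adjusted p = 0.000603) and 2.09 in PSC (adjusted p = 0.0193). Pf4, another platelet chemokine, rose by 1.73 in PBC (adjusted p = 0.00408) and 2.06 in PSC (adjusted p = 0.00111). Platelet markers summed to 376 to 1200 normalised reads in PBC livers, 297 to 374 in PSC livers and 171 to 299 in control livers, and their part was not tested.

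Rac2, the small GTPase of migrating leukocytes, rose by 2.23 in PBC (SE 0.24, adjusted p = 0.000162) and 1.01 in PSC (SE 0.24, adjusted p = 0.0153). It was the one gene of the 37 called between the models, higher in PBC by 1.22 (SE 0.26, adjusted p = 0.0279). In that comparison 1.11% of all tested models were called higher and 1.13% lower, and the count among the 37 was near that background. Vav1, which acts in leukocyte signalling, rose in both models, by 1.92 in PBC (adjusted p = 0.000777) and 0.99 in PSC (adjusted p = 0.0273). The neutrophil collagenase Mmp8, which can cleave chemokines, rose by 5.15 in PBC (SE 0.88, adjusted p = 0.00277), and its PSC difference of 1.97 did not pass (adjusted p = 0.148). Rgs1 and Rgs18 restrain G protein signalling: Rgs18 rose by 2.19 in PBC (adjusted p = 0.00986) and 2.22 in PSC (adjusted p = 0.00745), while Rgs1 was not called.

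**Figure D5:**
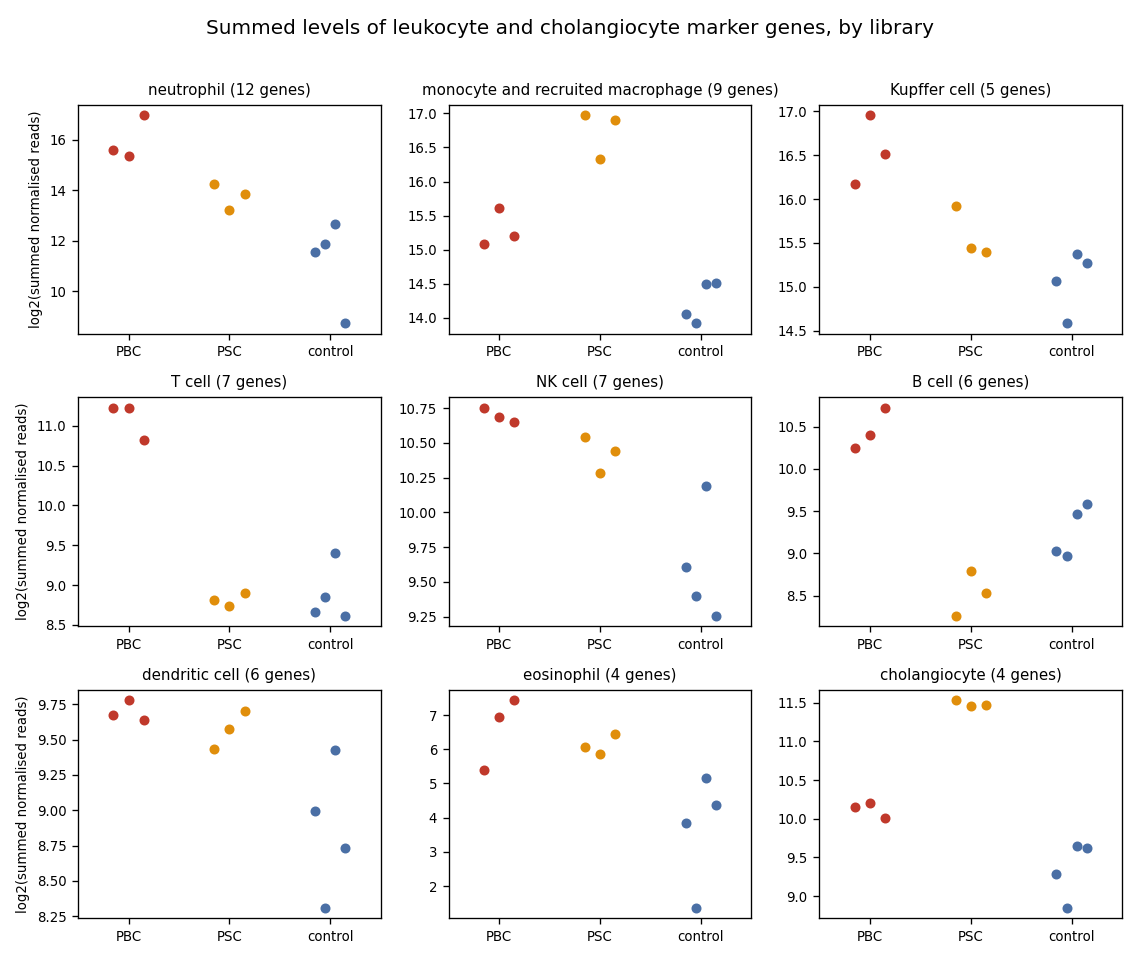
Summed normalised reads of the markers of each cell type, as log2, with 1 point per library, for PBC, PSC and control livers. The neutrophil, T cell and B cell sums are highest in PBC livers, and the monocyte and cholangiocyte sums in PSC livers. Spp1 supplies most of the monocyte sum in PSC livers, while Ly6c2 and Chil3 are higher in PBC livers. These sums describe the libraries and were not tested.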

How the data were processed

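Libraries were stranded poly(A) RNA (TruSeq, 1 µg of RNA with RIN above 8), read in pairs of 75 bases on a NextSeq 500, per the labels' protocols. STAR 2.4.0, SAMtools, Picard, FastQC, DESeq2 and build mm10 are named per the submitters' processing notes; the sources used here do not give the counting tool or its use of strand. The deposited signal is reads per gene model normalised by the authors with DESeq2. All values of a library (100%, tolerance 0.1) were multiples of the value of 1 read, so reads were recovered by division. No 2 libraries were near copies of each other.

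Gene models that reached 10 in 3 or more of the 10 libraries were tested with limma 3.58.1 (R 4.3.3) with an intensity trend on log2(value + 1), all 10 libraries in 1 fit and no covariates, with Benjamini-Hochberg adjustment over 18390 models and a threshold of 0.05; this scale understates the change of low genes. edgeR 4.0.16 and DESeq2 1.42.0 on the recovered reads were among 18 alternatives: a pseudocount of 10, no filter, a filter at 50, TMM scaling, equal totals, the compared groups alone, and the omission of each of the 10 libraries. The test was tried on simulated data with known changes. These were planted only above a set mean level and with the same spread setting for every gene model. The trial therefore does not cover genes with few reads or an unusual spread. Each group has separate mice, so p-values measure the spread between these mice. Some genes within the counts are not reported here. Members and lists were chosen with earlier results of these data known. Values by library are given for up to 4 genes of each role group with the smallest adjusted p, and for receptors or ligands that pair with them; a few further genes were added after their values were seen. Promoters are from RefSeq (GRCm38.p6), matched by symbol; Ccl2, Ccl4, Ccl5, Ccl7 and Cxcl5 were among the 13 tested genes with no entry. The deepest library had 2.49 times the reads of the shallowest.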

Additional observations from a re-analysis of the deposited data

Results flagged for a closer look

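In 5 of the 51 sets of 4 control values (9.80%), 1 control stood apart from the other 3. The cut-off would flag about 1 of 20 sets of independent, normally distributed values. The sets here come from the same 4 libraries and some hold zeros, so these shares cannot be compared. Control 3 held 5.11 normalised reads of Cxcl3, with 0 in the other controls. It held 48.5 of Ccl17 and 250 of Ccr1, each above the rest. Control 4 held 63.9 of Ccl22, above the rest, and 297 of Ccl25, below the rest. Without control 4 the PSC difference of Ccl22 passed the threshold (adjusted p = 0.0145). The Ccr1 calls in PBC and PSC held without control 3.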

How the results depend on the processing

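None of the 64 calls reversed under the alternatives that tested them, of 18 in all. Of the calls, 13 of 24 in PBC against control, 18 of 32 in PSC against control and 3 of 8 in PBC against PSC held under every alternative that tested them (Ccl20 and Cxcl17 left the test when a PSC library was omitted, Cxcl17 with TMM scaling, and both with Cxcl5 and Ccr3 under the filter at 50, and DESeq2 gave no adjusted p for Cxcl13), and 5, 7 and 6 further genes passed under at least 1. For PBC against control, DESeq2 called 1 member lower. For PSC against control, 1 member was lower with no filter. For PBC against PSC, 6 members were lower by DESeq2 and 5 with the compared groups alone.

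Over all models, PBC against control gave 830 higher with equal totals and 776 with the compared groups alone, and 913 lower by DESeq2 and 96 with the compared groups alone. PSC against control gave 1929 lower by DESeq2 and 1862 with the compared groups alone. PBC against PSC gave 135 higher with equal totals and 590 by DESeq2, and 334 lower with a pseudocount of 10 and 623 by DESeq2. Equal totals moved the median of all models by -0.16 in PBC against control. The share of higher calls there was 76.5%, against 60.1% with equal totals and 64.6% by DESeq2, and in PBC against PSC 49.5%, against 37.4% with equal totals.

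With 1 library left out, PBC against control gave 18 to 24 members and 673 to 1795 models higher, and 0 to 1 members and 63 to 1569 models lower. PSC against control gave 18 to 32 members and 680 to 1911 models higher, and 1 to 3 members and 245 to 1902 models lower. PBC against PSC gave 2 to 6 members and 61 to 260 models higher, and 0 to 4 members and 43 to 303 models lower. The cause of these shifts was not tested. No paired analysis was possible because the groups share no replicate numbers. Depth limits the genes with few reads, Cxcl3, Cxcl5, Ccl20 and Cxcl17 above all.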
